A study of Mus musculus with 3 samples.

Results

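C12 was the smallest of the 13 CD4+ clusters in the authors' annotation of donor T cells taken from mouse spleens 7 days after allogeneic bone marrow transplantation (BMT), and carried the working name Th17 with Il17a and Ccr6 as markers. It held 88 CD4+ cells, of which 3 TEa transgenic cells were left out, so that 85 of 10091 CD4+ cells other than TEa were described (0.842%), in a series of 21204 cells (10371 CD4+ and 10833 CD8+). B6D2F1 recipients in every group received B6 bone marrow and B6 T cells together with TEa T cells, which carry a transgenic receptor for a recipient peptide, and were dosed from day 0 to day 6 with saline or with 5 or 50 mg/kg of the calcineurin inhibitor cyclosporine (CSA). Each group had 6 mice, whose spleens were joined into 3 pools of 2 mice marked by antibody hashtags. Sorted CD4+ and CD8+ cells of a group were mixed and loaded as 1 capture on the 10x 5′ platform, so that treatment and capture cannot be told apart, and the pool of 2 mice was the replicate.

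C12 contained 30 cells of the saline group, 32 of the CSA 5 mg/kg group and 23 of the CSA 50 mg/kg group. Their median depth was 3738 UMIs (unique molecular identifiers, that is, counted RNA molecules), against 4173 in the other 10006 CD4+ cells, and by group it was 3088.5, 4427 and 3629 UMIs against 3097, 4394 and 5998. C12 and the other cells were thus of like depth in the first 2 groups, and C12 was the shallower at 50 mg/kg. The median mitochondrial share was 1.60%, 1.49% and 1.77% in C12 and 1.70%, 1.65% and 1.67% in the other cells. A strong second hashtag was present on 1 of 30, 1 of 32 and 4 of 23 C12 cells, and on 2.86%, 4.56% and 5.23% of the other CD4+ cells. At 50 mg/kg the share was thus higher in C12. Whether such cells were doublets was not tested. A barcode that occurred in more than 1 capture was carried by 2 C12 cells (436 cells of the series carried one). No cell of the CD4+ table carried the authors' doublet or dead-cell mark. All CD4+ cells had at least 1 Cd4 UMI and none had a Cd8a UMI, which the authors' selection fixed. The CD4 antibody count, which the clustering by RNA did not use, had pool medians that averaged 310 ± 59 in C12 and 338 ± 12 in the other cells with saline (SD, n = 3 pools). At 5 mg/kg these were 451 ± 55 and 510 ± 34, and at 50 mg/kg 218 ± 50 and 373 ± 19. C12 was the lower in 7 of 9 pools. These counts were not scaled to depth, and C12 was shallower at 50 mg/kg. Per 1000 RNA UMIs the antibody count averaged 84.7 ± 22.6 in C12 and 93.9 ± 24.8 in the other cells (SD, n = 9 pools), and was lower in C12 in 7 pools.

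Type 17 T cells are T cells that make IL-17A, IL-17F and IL-22. They are maintained by IL-23 through the receptor chain Il23r, migrate along CCL20 through Ccr6, and occur among conventional CD4+ cells (Th17) as well as among gamma delta T cells and innate-like alpha beta T cells. IL-17A-producing donor cells are of interest in graft-versus-host disease of the skin. Invariant natural killer T (NKT) cells are innate-like cells that recognise lipids on CD1d with a nearly fixed alpha chain, which joins the TRAV11 and TRAJ18 segments in mice, and develop under the factor Zbtb16.

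Expression was compared as CPM, the UMIs of a gene scaled by all UMIs summed over the same cells. A cluster against the cells it was separated from is not a test, so no p is given for these ratios. A gene was called higher or lower in C12 when the pooled CPM differed at least 2-fold and lay on the same side of the other CD4+ cells in all 3 groups. Of 3122 genes with at least 20 UMIs seen or expected in C12, 48 (1.54%) were higher and 144 (4.61%) were lower, together 192 (6.15%), and the median log2 ratio over all of them was -0.06. A gene low in the other cells has enough UMIs only if it is high in C12. Counts of listed genes called higher are therefore partly fixed by this filter. Intervals are 95% and cover counting error only.

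The label was checked first. Il17a, the cytokine gene that defines the lineage, gave 7 UMIs in 4 of 85 C12 cells (4.71%, exact Clopper-Pearson interval 1.30 to 11.6%), against 44 UMIs in 13 of 10006 other CD4+ cells (0.130%). C12 therefore held 13.7% of all Il17a UMIs of CD4+ cells, while C7 held 25 UMIs and C3 held 15. Il17f had no UMI in C12, which allows a share of up to 4.25% of cells with a UMI (exact Clopper-Pearson limit), and Il22 had 3 UMIs. Il17re, a chain of the IL-17C receptor, was seen in 21 of 85 cells (24.7%, 16.0 to 35.3%) and in 0.320% of the other CD4+ cells. None of 309 cells of C9, the cluster highest in Ccr7, the lymph node receptor of naive T cells, had an Il17re UMI. With every cell thinned to 2000 UMIs the Il17re shares were 19.3% in 83 C12 cells (2 cells were too shallow) and 0.143% in 9081 other cells (925 too shallow). The second given marker, Ccr6, was seen in 13 C12 cells, with 18, 9 and 2 UMIs in the saline, 5 mg/kg and 50 mg/kg groups. Il17a was thus sparse, and the markers of the label were nearly all in the cells of the first 2 groups. The cells are called C12 here, without a cell type name.

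**Figure D1:**
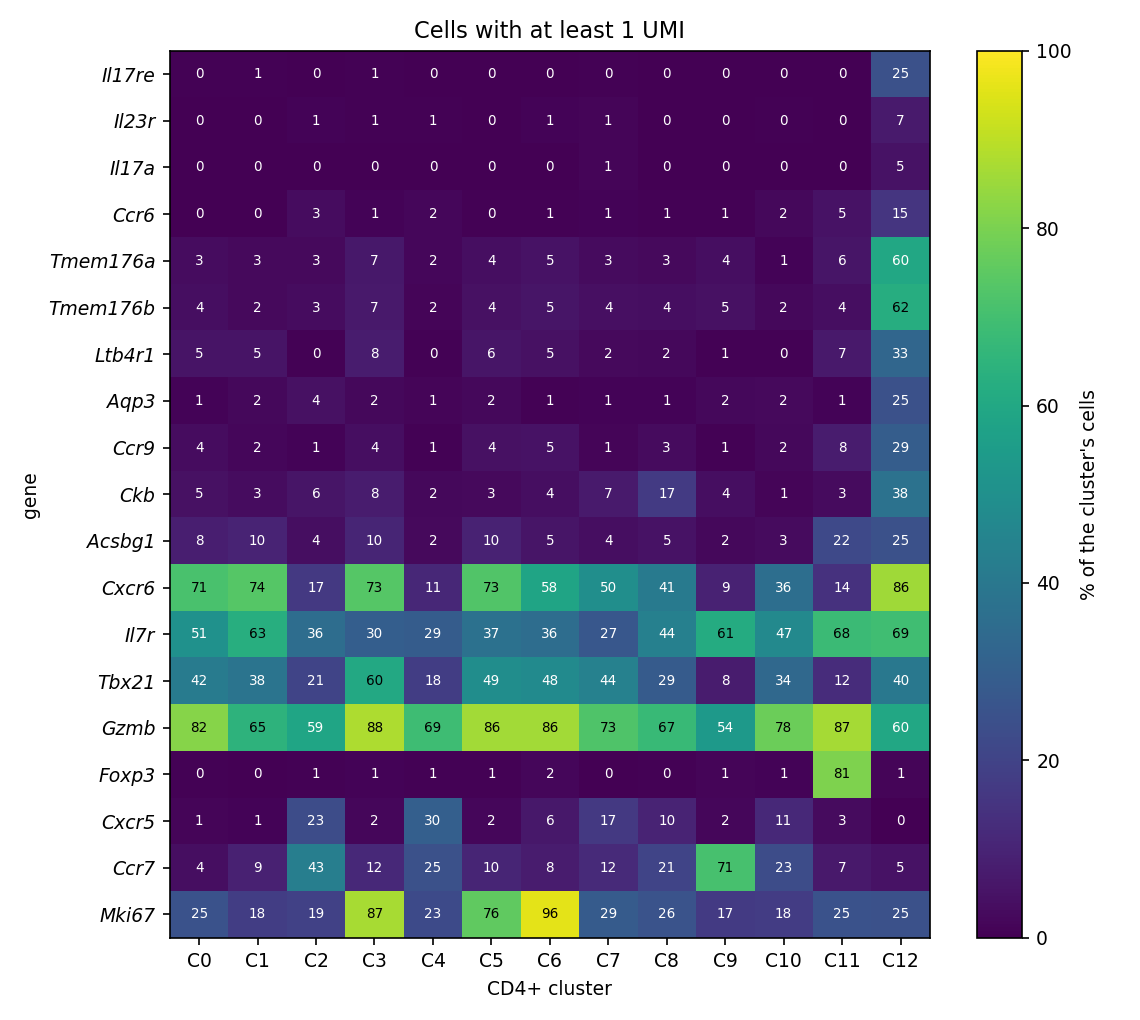
Percentage of cells with at least 1 UMI of a gene (rows, numbers and colour) in each CD4+ cluster (columns), over all pools without TEa cells. Il17re was seen in 25% of C12 cells and in at most 1% of any other cluster, Cxcr6 in 86% of C12 cells and at 70% or more also in C0, C1, C3 and C5.

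Among 13 listed type 17 receptor genes, 8 had enough UMIs, 4 were higher and none was lower (median log2 ratio 1.31). Ccr6, the receptor of CCL20 (chr17:8236043-8257141, plus strand, GRCm38), stood at 83.6 CPM against 2.99 (log2 ratio 4.81, interval 4.18 to 5.39), and was higher in 6 of 9 pools. Ltb4r1, a receptor for leukotriene B4, stood at 167 CPM against 9.89 (log2 ratio 4.08) and was higher in 8 of 9 pools. Il7r, the receptor for the survival cytokine IL-7, stood at 594 CPM against 234 (1.34), and Il12rb1, the chain shared by the IL-12 and IL-23 receptors, stood at 107 against 43.8 (1.29). Il23r had 7 UMIs, all in the saline group. Il17re had the largest ratio of the list (72.1 against 0.771 CPM, log2 ratio 6.55, interval 5.76 to 7.31) but was not called, since it had no UMI at 50 mg/kg.

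Of 13 listed type 17 transcription factor genes 10 had enough UMIs, and Rora alone was higher (190 CPM against 64.4, log2 ratio 1.56). Rora, a nuclear receptor that promotes Th17 differentiation, was higher in 9 of 9 pools. Maf, which promotes IL-10 and IL-21 in several helper lineages, came to 274 against 143 CPM (0.93). Stat3 (0.12) and Batf (-0.60), which act early in Th17 differentiation, did not reach 2-fold.

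The 15 genes with the highest called ratios were led by Tmem176b and Tmem176a, neighbouring genes for membrane proteins known to be high in type 17 cells, at 560 CPM (43.0-fold, log2 ratio 5.43) and 427 CPM (38.5-fold, 5.27). Tmem176b was seen in 53 C12 cells (62.4%, and 50.6% after thinning) and in 3.76% of the others, and both genes were higher in every pool. Ckb, the brain-type creatine kinase, followed Ccr6 and Ltb4r1 at 176 against 13.7 CPM (3.68, 9 of 9 pools), and Ccr9, the receptor that directs T cells to the small intestine, at 121 against 11.7 (3.38). Others of the 15 were the acyl-CoA synthetase gene Acsbg1 (2.76), the TNF receptor gene Tnfrsf25 (2.25), the proprotein convertase Furin (2.06), the actin-binding Nebl (2.02), the ubiquitin ligase subunit Asb2 (1.87), the Polycomb protein Phf1 (1.79), the ciliary traffic gene Lztfl1 (1.77) and the prenyl-binding Pde6d (1.74). At 50 mg/kg alone Acsbg1 (0.26), Nebl (0.54), Pde6d (0.89) and Furin (0.96) were under 2-fold. C12 ranked first among the 13 clusters in 14 of these 15 genes, which their choice by ratio to the other cells largely fixes. Lztfl1 was higher in C11, at 78.7 CPM against 72.1.

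**Figure D2:**
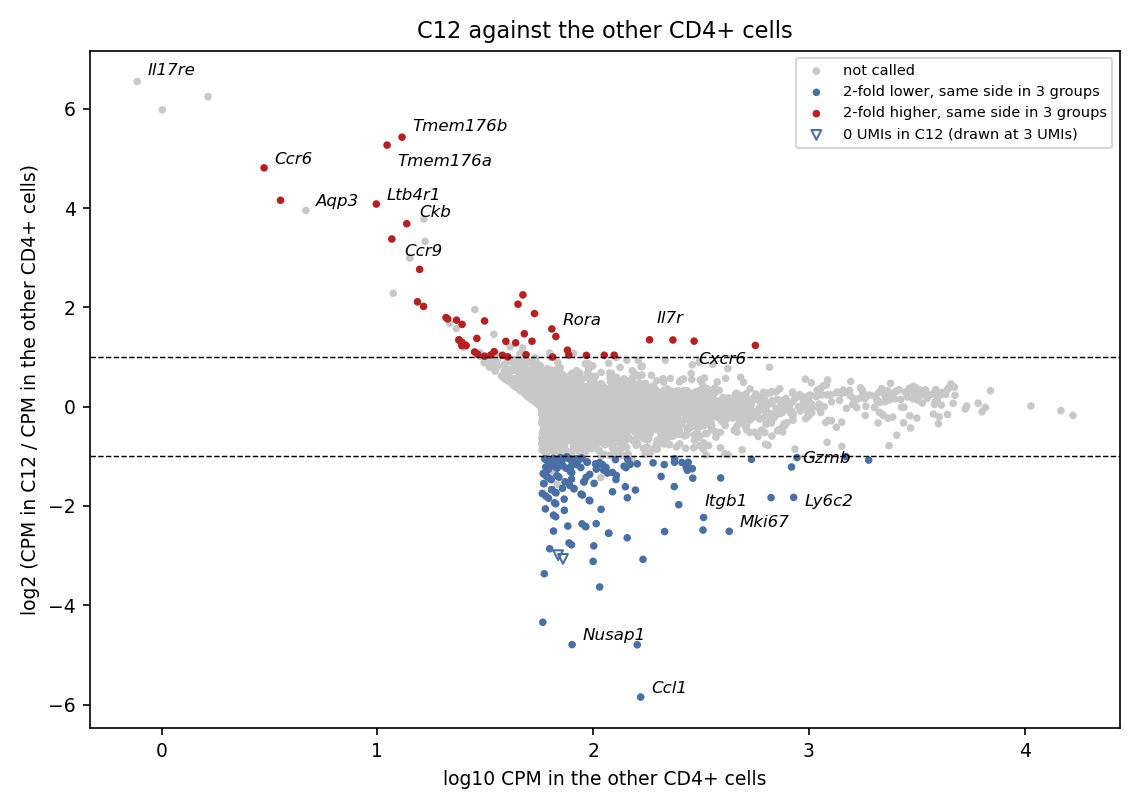
Each point is 1 gene of 3122, with its CPM in the other CD4+ cells (x axis, log10) and the ratio of C12 to those cells (y axis, log2), where dashed lines mark 2-fold. Red points are the 48 called higher and blue points the 144 called lower, which start at the level where 20 UMIs are expected in C12. Open triangles had 0 UMIs in C12 and are drawn at 3 UMIs.

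Homing genes were divided. Of 20 listed, 12 had enough UMIs, 2 were higher and 4 were lower. Cxcr6, a receptor of T cells that enter and stay in tissues, was read from 254 UMIs in 73 cells and stood at 733 CPM against 294 (log2 ratio 1.32). In the saline, 5 mg/kg and 50 mg/kg groups it stood at 647, 710 and 848 CPM in C12 and at 329, 321 and 248 in the other cells, and C12 was higher in all 9 pools. The beta-1 and alpha-4 integrin genes were lower in all 9 pools, Itgb1 at 187 against 667 CPM (-1.83) and Itga4 at 260 against 542 (-1.06). The exit receptor S1pr1 (72.1 against 160 CPM) and the lymph node receptor Ccr7 (14.4 against 65.5 CPM) were also lower in 9 of 9 pools. The low Ccr7 level was shared with C0 (15.4 CPM), while C1 stood at 36.4 and C9 at 507 CPM.

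Genes of cell division were the main group on the low side. Of 14 listed, all had enough UMIs and 13 were lower, with a median log2 ratio of -1.66. Mki67 stood at 75.0 CPM against 427 and Top2a at 57.7 against 323, and both were lower in every pool. Among the 10 lowest called genes, Nusap1 (-4.79), Aspm (-4.34), Cenpf (-3.63), Clspn (-3.36), Smc2 (-3.08), Fbxo5 (-2.86), Asf1b (-2.80) and Cdc20 (-2.78) have roles in DNA replication or mitosis. The comparison cells included the cycling clusters C3, C5 and C6. Against cells outside those clusters the number of lower genes was 78 instead of 144, and Fbxo5, Asf1b and Cdc20 were at -0.82, -0.91 and -0.62. The other 2 lowest genes were the chemokine Ccl1 (1 UMI, 2.88 CPM against 166) and Id3 (11.5 against 100), an inhibitor of E proteins.

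Among 16 Th1 and cytotoxicity genes 11 had enough UMIs, none was higher and 3 were lower (median log2 ratio -0.50). Granzyme B (Gzmb) stood at 358 CPM against 830, with log2 ratios of -0.64, -0.44 and -3.19 across the groups in order of dose, and was not called when the highest dose was left out. By cluster Gzmb stood at 448 CPM in C1, 328 in C9 and 1095 in C0. Il12rb2, the chain specific for the IL-12 receptor, stood at 26.0 against 68.0, and the chemokine Ccl3 at 20.2 against 118. Tbx21, the Th1 factor T-bet, came to 136 against 118 CPM, with log2 ratios of -0.39, 0.07 and 0.87 across the groups in order of dose. A Tbx21 UMI was seen in 34 of 85 C12 cells (40%) and in 36.9% of the other CD4+ cells. Among the 21 C12 cells with Il17re 8 had one, a share near that of all C12 cells. Ifng came to 46.1 against 64.4 CPM. Of the other lineage lists no gene was called in Th2 (1 gene with enough UMIs), regulatory T cells (5) or follicular helper cells (4). Foxp3 had 1 UMI, Bcl6 2 and Cxcr5 none. Tcf7, a factor of naive and memory cells, was the 1 lower gene of 7 in the naive and quiescence list (69.2 against 145 CPM). Of the genes induced by T cell receptor (TCR) signals, Nr4a1 and Myc were lower, 2 of 5. Of the list of genes that CSA was seen to move in CD4+ cells of this series, 3 of 9 were lower (Ly6c2, Klrg1 and Ccl1). That list was chosen on these samples and is not independent evidence of direction. Of the 9 type 17 cytokine genes only Tgfb1 had enough UMIs (162 against 164 CPM), and of 13 sterol synthesis genes none had. All 7 T cell identity genes had enough UMIs and none was called (median 0.00).

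Markers of other cell types were summed over each list. Few could be called, since 1 of 2 CD8+, 1 of 6 B cell, 1 of 8 myeloid, 0 of 4 NK cell and 0 of 5 erythroid markers had enough UMIs, and those 3 were not called. Cd79a and Lyz2 had no UMI in C12. Pool sums of the 6 B cell markers ranged from 0 to 244 CPM in C12 and from 197 to 298 in the other cells, those of the 8 myeloid markers from 94.6 to 512 and from 308 to 436, and those of the 5 erythroid markers from 0 to 20.6 and from 3.22 to 36.8. The 4 NK cell markers stood at 0 to 44.1 CPM in C12 pools with saline or 5 mg/kg, and at 0 to 192 CPM in those with 50 mg/kg, where the other cells had 0.446 to 2.14. Ncr1 gave 4 UMIs there, all in 1 cell. The part of such cells in the results at 50 mg/kg was not tested.

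Across groups the type 17 genes of C12 were not evenly spread. Cells with a UMI of any of Il17re, Ccr6, Il23r or Il17a were 17 of 30 with saline (56.7%), 18 of 32 at 5 mg/kg (56.3%) and 1 of 23 at 50 mg/kg (4.35%). By pool these shares were 60, 62.5 and 42.9% with saline, 40, 50 and 63.2% at 5 mg/kg, and 0, 0 and 9.09% at 50 mg/kg, so that no pool at 50 mg/kg reached any of the other 6. The means were 55.1 ± 10.7%, 51.1 ± 11.6% and 3.03 ± 5.25% (SD, n = 3 pools). In the other CD4+ cells they were 2.53 ± 0.421%, 2.12 ± 0.759% and 0.359 ± 0.0992%. Because the cells were grouped by these same genes within 1 capture per treatment, this is a description with no test.

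Il17re UMIs numbered 6, 1 and 2 in the saline pools, 0, 2 and 14 in the 5 mg/kg pools, and 0 in each pool at 50 mg/kg. As levels this was 90.9 CPM (exact Poisson interval 41.6 to 173), 109 CPM (62.5 to 178) and 0 CPM (0 to 36.4). The limit of 3 UMIs, which is used for counts of 0 elsewhere, comes to 29.6 CPM. The level in the other CD4+ cells was 1.81, 0.742 and 0.0481 CPM. Most of the 5 mg/kg UMIs came from pool 3. No UMI at 50 mg/kg was seen either for the water and glycerol channel Aqp3 (12, 13 and 0 UMIs), the protease inhibitor Serpinb1a (15, 24 and 0), the homeobox gene Vax2 (26, 32 and 0) and the inhibitory receptors Pdcd1 (20, 36 and 0) and Ctla4 (22, 26 and 0). Their levels in the other CD4+ cells at 50 mg/kg were 4.14, 2.65, 0.722, 18.8 and 61.4 CPM in that order, against 5.15, 25.1, 28, 264 and 106 CPM with saline, so that the other cells were also lower at 50 mg/kg. Except for Ctla4 these levels lie under 29.6 CPM, so that 0 UMIs does not place C12 below the other cells. Tmem176b, by contrast, gave 72, 97 and 25 UMIs, or 728, 663 and 247 CPM, and at 50 mg/kg still had a log2 ratio of 5.64 to the other cells, whose own level was 17.7, 19.6 and 4.95 CPM.

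**Figure D3:**
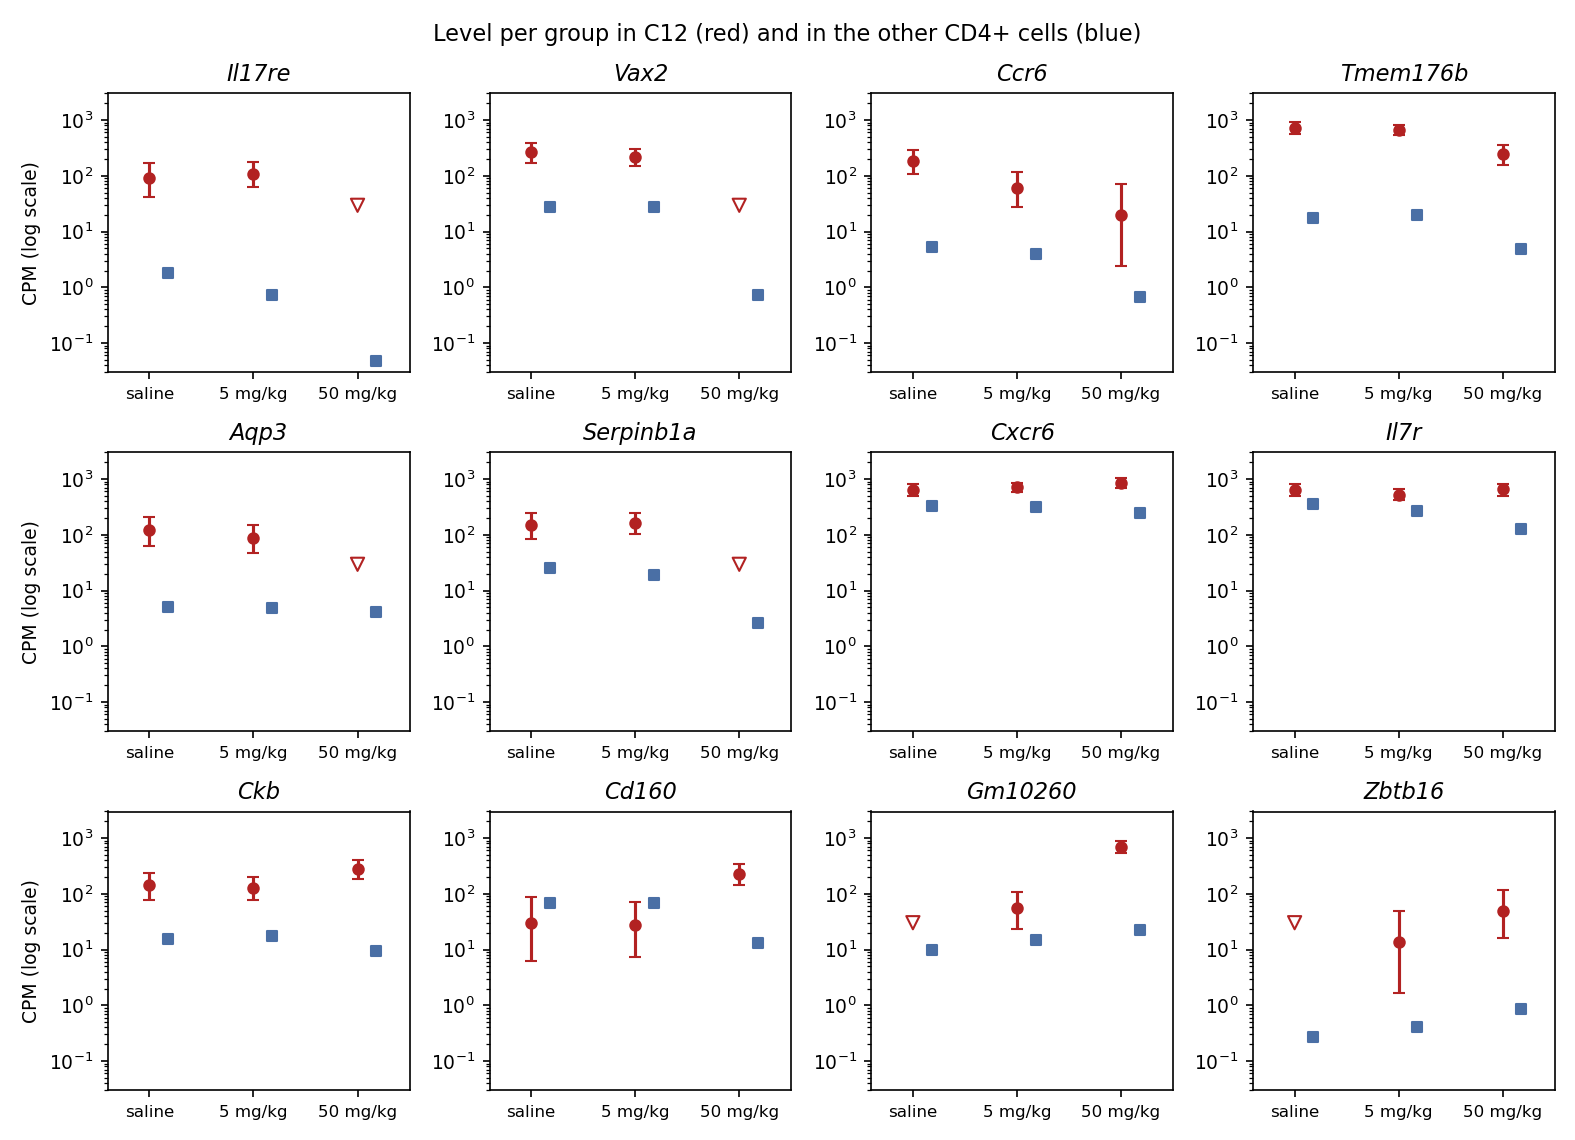
CPM (log scale) of 12 genes in C12 (red circles, bars are 95% Poisson intervals, open triangles stand for 0 UMIs and are drawn at the level of 3 UMIs) and in the other CD4+ cells (blue squares) of each treatment group. Il17re, Vax2, Aqp3 and Serpinb1a had no UMI in C12 at 50 mg/kg, Cxcr6 and Il7r were above the other cells in each group, and Gm10260 went from 0 to 690 CPM.

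Restricted to the saline and 5 mg/kg cells, 52 of 2389 genes (2.18%) were called higher and 141 (5.9%) lower. Among the highest were Il17re (log2 ratio 6.32), 1700012B07Rik (5.83), Tmem176b (5.21), Tmem176a (5.10), Ccr6 (4.58), Aqp3 (4.34) and Ltb4r1 (4.04). In these cells 4 of 8 type 17 receptor genes, 2 of 10 factors (Rora and Maf) and 4 of 5 associated genes (Tmem176a, Tmem176b, Serpinb1a and Aqp3) were called higher. Those 4 associated genes stood at 5.04 (Aqp3) to 22.2 CPM (Serpinb1a) in the other cells. Of the receptor genes called higher, Il17re, Ccr6 and Ltb4r1 stood at 1.28, 4.60 and 13.4 CPM there. At such levels all of these genes had enough UMIs only by being high in C12, so neither count is independent support. At 50 mg/kg 870 genes could be compared, and 37 (4.25%) were called higher and 79 (9.08%) lower. Only 865 genes had enough UMIs in both sets. Among these, 9 (1.04%) were called higher in the first and 33 (3.82%) in the second, and 5 were called in both, 55.6% of the first and 15.2% of the second.

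The 50 mg/kg cells were led by the predicted gene Gm10260 (0, 8 and 70 UMIs across the groups, 690 CPM against 22.1 at 50 mg/kg, log2 ratio 4.97), Ckb (276 against 9.57 CPM, 4.85) and Cd160 (227 against 12.9 CPM, 4.13), a receptor of innate-like and cytotoxic lymphocytes. Cd160 had 3, 4 and 23 UMIs in C12, and in the saline and 5 mg/kg groups lay below the other CD4+ cells. Next by ratio came Asb2 (237 against 40.5 CPM), Cish (227 against 40.9 CPM), a feedback inhibitor of cytokine signalling, Il7r (651 against 125), Socs1 (375 against 77.5 CPM), another such inhibitor, and the survival gene Bcl2 (247 against 53.3 CPM, from 4, 4 and 25 UMIs). Lymphotoxin beta (Ltb) stood at 1983 against 510 CPM. Of 12 listed genes of innate-like T cells 2 had enough UMIs over all groups and none was called. Most were at low counts, with Zbtb16 at 0, 2 and 5 UMIs across the groups, Klrb1c (NK1.1) at 1, 2 and 4, Klrk1 at 2, 0 and 10 and Klrb1b at 2, 1 and 0, while Plac8 had 11, 56 and 13 and Klrb1a none. Il4, of the Th2 list, had 0, 2 and 7. In the other CD4+ cells at 50 mg/kg Zbtb16, Klrb1c and Il4 stood at 0.866, 0.289 and 0.722 CPM. Transcripts of gamma delta receptor segments were also seen (Tcrg-C1 at 0, 2 and 6 UMIs, Tcrg-C2 at 2, 0 and 8, Trdc at 0, 0 and 1).

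Whether C12 stayed whole varied among the other partitions deposited by the authors. At resolution 0.45 the 85 members fell into a cluster of 61 (29, 29 and 3 cells of the saline, 5 mg/kg and 50 mg/kg groups) and one of 24 (1, 3 and 20). All 25 Il17re UMIs, all 29 Ccr6 UMIs and all 7 Il17a UMIs lay in the larger, and the smaller had 76 of the 78 Gm10260 UMIs, 24 of the 30 Cd160 UMIs and all 9 Il4 UMIs. Cxcr6 was high in both, at 664 and 924 CPM. At resolution 0.35, 56 members lay in a cluster of 62 cells and 29 in one of 3610. At 0.375, 60 members with all 25 Il17re UMIs lay in a cluster of 1950 cells, 24 formed a cluster alone and 1 lay in one of 1697. At 0.425, 61 members with all 25 Il17re UMIs lay in a cluster of 1957 cells and 24 formed a cluster alone. At resolution 0.3 all 85 cells were part of 1 larger cluster of 3672 cells, and at 0.55, the finest, they were again together in a cluster of 105.

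The TCR sequences were read from a separate library that the clusters did not use. A clonotype was listed for 73 C12 cells, with an alpha chain for 60, a beta chain for 69 and both for 56. TRAV11 joined to TRAJ18 was found in 11 of 14 C12 cells with an alpha chain at 50 mg/kg (78.6%, exact Clopper-Pearson interval 49.2 to 95.3%), in 0 of 24 with saline and in 0 of 22 at 5 mg/kg. The pools at 50 mg/kg had 1 of 1, 6 of 6 and 4 of 7. Of the remaining 12 C12 cells at 50 mg/kg, 3 had another alpha chain and 9 had none listed. Among other CD4+ cells with an alpha chain the joined pair was seen in 1 of 2864, 0 of 1995 and 4 of 2293 cells, and among CD8+ cells in 1 of 7986. Of the 15 CD4+ cells with this pair at 50 mg/kg, 11 were in C12. Of those 11, 1 had a strong second hashtag. Over the 8 pools with at least 4 C12 cells with an alpha chain, the share was 19.6% in C12 and 0.0613% in the other cells, higher in 2 pools, lower in 1 and equal in 5 (exact two-sided sign-flip test p = 0.5, adjusted p = 0.5 over 2 comparisons of receptor measures). With 5 pools equal this test cannot go below 0.25. No C12 cell joined TRAV1 to TRAJ33, the pair of mucosal-associated invariant T cells.

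The 11 alpha chains are shown because they differ from each other at 1 codon of the junction only. Each junction is 45 bases long, 5′ to 3′ from the codon of the conserved cysteine, and capitals mark bases 10 to 12, which varied. The forms below were carried by 5, 3, 1, 1 and 1 C12 cells in that order, and by 1, 2, 1, 1 and 0 other CD4+ cells.
form 1: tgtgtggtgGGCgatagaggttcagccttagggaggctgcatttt
form 2: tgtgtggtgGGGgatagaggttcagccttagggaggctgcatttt
form 3: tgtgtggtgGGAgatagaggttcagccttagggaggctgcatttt
form 4: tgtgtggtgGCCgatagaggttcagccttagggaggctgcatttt
form 5: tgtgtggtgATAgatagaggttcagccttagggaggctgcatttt

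Forms 1, 2 and 3, in 9 of the 11 cells, encode the same amino acids, and forms 4 and 5 each encode others. The beta chains paired with them were all different, 10 of 10 among the cells in which one was read, as 3 beta junctions of cells with form 1 show, the first from pool 2 and the others from pool 3 at 50 mg/kg.
beta 1: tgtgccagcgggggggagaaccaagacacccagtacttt
beta 2: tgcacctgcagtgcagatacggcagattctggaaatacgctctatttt
beta 3: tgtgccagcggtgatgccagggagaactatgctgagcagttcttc

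Of those 10 beta chains, 9 used a TRBV13 segment and 1 used TRBV1, families that are known to pair with the invariant alpha chain. In 7 of the 9 the segment was listed as TRBV12-2 with TRBV13-2. Over all C12 cells that listing was found in 14 of 69 beta chains (20.3%), with 2, 2 and 10 in the saline, 5 mg/kg and 50 mg/kg groups, and in 7.64% of those of the other CD4+ cells. Within the 50 mg/kg group, Zbtb16 gave 4 UMIs in the 11 cells with the TRAV11-TRAJ18 chain and 1 UMI in the other 12, Il4 6 and 1, and Klrb1c 4 and 0, and Tcrg-C2 6 and 2, whereas all 6 Tcrg-C1 UMIs were in the other 12. Gm10260 was in both, with 45 and 25 UMIs.

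**Figure D4:**
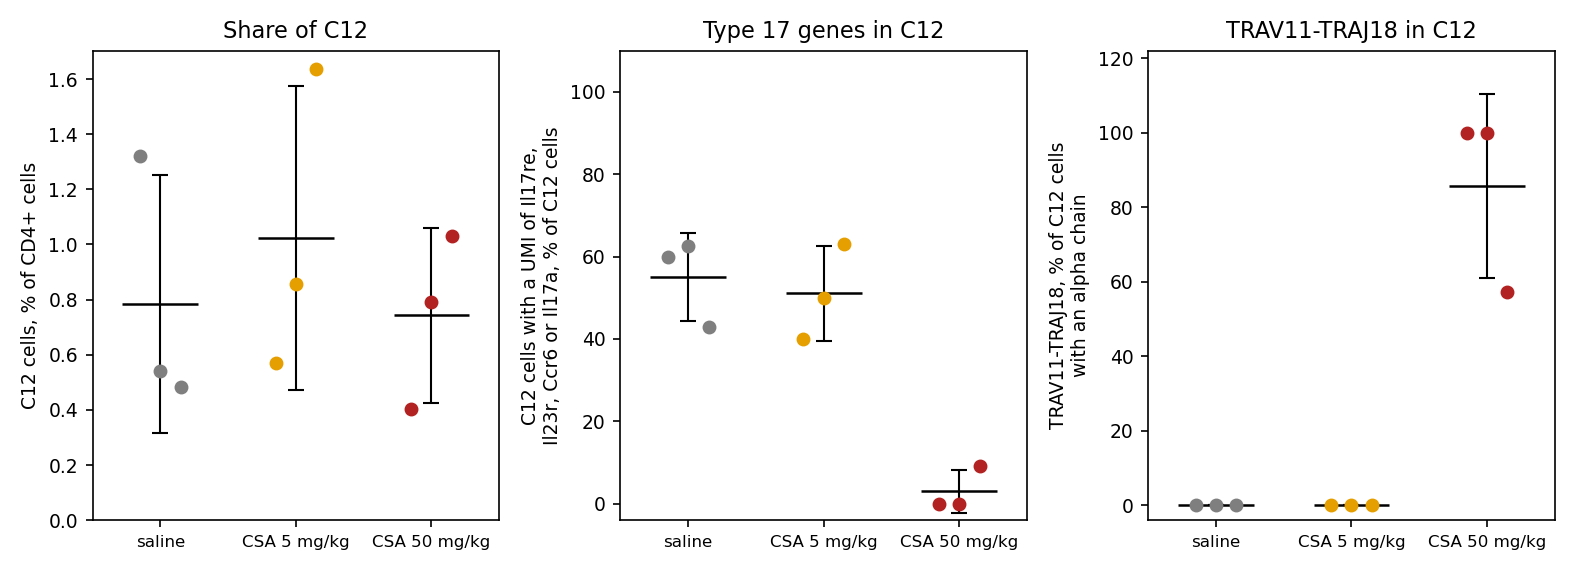
Left, C12 as a percentage of CD4+ cells other than TEa. Middle, percentage of C12 cells with a UMI of at least 1 of 4 type 17 genes (Il17re, Il23r, Ccr6 and Il17a). Right, percentage of C12 cells with an alpha chain that joined TRAV11 to TRAJ18. Points are pools of 2 mice, lines are means and bars SD (n = 3 pools). The share of C12 overlapped between groups, while in the other panels the 50 mg/kg pools stood apart from the other 6 (0 to 9.09% against 40 to 63.2%, and 57.1 to 100% against 0%).

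All 73 nucleotide clonotypes of C12 were distinct, so that no 2 C12 cells shared one. Cells in expanded clonotypes (2 or more cells of a pool) made up 7.08 ± 17.5% of C12 cells and 20.6 ± 3.72% of the other CD4+ cells with a clonotype over 8 pools (SD, n = 8). C12 was lower in 7 of 8 pools, but the difference of -13.5 percentage points did not pass the test (exact two-sided sign-flip p = 0.102, adjusted p = 0.203). Pool 2 of the saline group, with 3 of 6 cells, was the exception, and without it the difference was -19.8 points (exact sign-flip p = 0.0156). Leaving out the only pool on the other side fixes this p at the smallest the test can give, so it is no support. In all, 4 C12 cells shared a clonotype with cells of other clusters, each in the same pool, 1 at 5 mg/kg and 3 with saline. The last of these is given because its clone crossed 3 clusters, with 2 partners in C6 and C0.
shared alpha: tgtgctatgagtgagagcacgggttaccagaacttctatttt
shared beta: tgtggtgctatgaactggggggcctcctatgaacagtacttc

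The share of C12 among CD4+ cells addressed whether the cluster changed in size with dose. The pools had 1.32, 0.541 and 0.485% with saline, 0.571, 0.857 and 1.64% at 5 mg/kg, and 0.405, 0.792 and 1.03% at 50 mg/kg, from 15, 8 and 7, then 5, 8 and 19, then 4, 8 and 11 cells. The means of 0.782 ± 0.468%, 1.02 ± 0.551% and 0.743 ± 0.316% (SD, n = 3 pools) overlapped widely. No trend with dose was detected (exact two-sided Jonckheere-Terpstra permutation test, p = 1, adjusted p = 1 over the 13 clusters, where the smallest possible p is 0.00119). Pairwise against saline, the exact permutation p was 0.5 for 5 mg/kg and 0.9 for 50 mg/kg (3 pools against 3 cannot go below 0.1). At 4 to 19 cells per pool, differences smaller than this spread were not detectable. Within that share, the type 17 genes and the TRAV11-TRAJ18 chain stood at the values given above for each group.

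By Pearson correlation C12 was most like C1, C0 and C8 among the other 12 clusters, with coefficients of log2(CPM + 1) across 6127 genes of 0.933, 0.920 and 0.913. These are values across genes of shared captures and have no p. By Spearman correlation C1 was again first (0.906), C8 (0.882) and C2 (0.881) came next, and C0 was lower (0.877). Cxcr6 stood at 733 CPM in C12, 465 in C1 and 550 in C0, Il7r at 594, 422 and 438, and Mki67 at 75.0, 48.5 and 103, whereas Tmem176b stood at 560 CPM in C12 and 7.10 and 18.6 in C1 and C0. Among the 5 genes whose CPM over the 13 clusters correlated best with that of Il17a were 1700012B07Rik (0.942), Vax2 (0.941), Il17re (0.941) and Tmem176b (0.938). Candidates needed at least 20 UMIs in C12 and UMIs in at least 10 C12 cells. Il17a stood at 20.2 CPM in C12, 7.22 in C7 and at most 1.45 in any other cluster. These coefficients thus rest largely on the C12 value and are no independent evidence of likeness. Il17a, Il17re and Tmem176b were each highest in C12.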

How the data were processed

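Donor T cells of 3 captures (saline, CSA 5 mg/kg and CSA 50 mg/kg) were measured by 10x 5′ single-cell RNA and TCR sequencing with antibody tags. The authors deposited raw counts (UMIs per gene and cell, and antibody UMIs), the mitochondrial share as a fraction per cell, module score columns that were not used, clusters, hashtag pools and TCR sequences. Their processing notes name Cell Ranger, Seurat 3.0.0 and mm10. Cells and 18029 genes had been filtered by them, and a Cell Ranger version was not given in the sources used here. Gene positions are from the GENCODE annotation of GRCm38.

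UMIs were summed over C12 cells and over the other CD4+ cells, without TEa cells, by group and pool, and divided by all UMIs to give CPM (346727 UMIs in C12, 98965 to 146381 per group). No count model was fitted, since a cluster against the rest is no test. Ratios carry exact conditional binomial intervals, levels exact Poisson intervals and shares Clopper-Pearson intervals at 95%. Counts of 0 were read against 3 UMIs or cells. Shares of clusters and receptors were compared over pools by exact permutation, with Benjamini-Hochberg adjustment. Nothing beyond the pooling of mice makes pools replicates. Named genes were those of fixed lists, the 15 highest (in at least 10 C12 cells) and 10 lowest called genes without TCR segments, and the 5 most like Il17a. Some genes that these rules or lists would name are not reported here. Genes that led 1 or 2 groups, Gm10260, Cish, Socs1 and Ltb among them, were named after their values were seen. Members, lists and tests were chosen with earlier results of these data known. Scripts ran in Python 3.11.15 (numpy 2.4.6, scipy 1.17.1, pandas 2.3.3), and edgeR 4.0.16 and DESeq2 1.42.0 in R 4.3.3 gave alternative scaling factors only. The calculations were tested on simulated counts. Alternatives covered scaling, filters, thinning, comparison cells, groups, resolution and left-out pools.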

Additional observations from a re-analysis of the deposited data

Results flagged for a closer look

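Of 87 listed or named genes with at least 20 UMIs in C12, and enough in the other cells to expect 3 UMIs in any group where C12 had none, 6 (6.90%) lay on opposite sides of the other CD4+ cells in every saline pool and every 50 mg/kg pool, against 156 of 2701 (5.78%) among all such genes. The difference between the groups was not tested for any of them, and each group is 1 capture. The log2 ratio of C12 to the other cells went from -1.18 with saline to 4.13 at 50 mg/kg for Cd160, from -1.84 to 2.21 for Bcl2, from -0.93 to 1.53 for Nfkbiz, an inhibitor of the NF-κB family that acts in type 17 cells, and from -0.39 to 0.79 for Il2rb, the chain shared by the IL-2 and IL-15 receptors. It went the other way for Klf2, a factor of lymphocyte traffic (0.63 to -0.85), and for S100a4 (0.89 to -1.69).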

How the results depend on the processing

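Limits of this description are the 4 to 19 C12 cells per pool, 1 capture per treatment and clusters drawn from the counts being compared. The difference in the share of C12 between 50 mg/kg and saline was -0.04 percentage points. It changed sign outside the cycling clusters (0.118), without saline pool 1 (0.230) and without 50 mg/kg pool 1 (0.130). Without 1 pool it ranged from -0.188 to 0.230. The p values beside it are adjusted values of the exact trend test over the 3 groups and do not test this difference. They were 1 outside the cycling clusters and 0.576 to 1 without 1 pool. Chosen after seeing the data, the difference was -0.666 for the larger cluster at resolution 0.45 (adjusted exact trend p = 0.265). It was -0.396 without the TRAV11-TRAJ18 cells (adjusted exact trend p = 0.75). With hashtag number as a replicate block the difference was -0.0395 (adjusted exact trend p = 1). The number of genes higher and lower, 48 and 144, was 214 and 4248 with no filter on low counts, 18 and 32 at 50 UMIs or more, 15 and 43 with cells thinned to 2000 UMIs, and 23 and 41 in saline cells alone. Lower genes were 78 against cells outside the cycling clusters, 79 in 50 mg/kg cells alone and 75 for the larger cluster at resolution 0.45, the last 2 chosen after seeing the data. Leaving out a pool gave 37 to 49 and 91 to 140, with the lowest values without 5 mg/kg pool 3, which held 19 C12 cells. The expanded share difference ranged from -19.8 to -11.7 without 1 pool (exact sign-flip p from 0.0156 to 0.188). The lowest p, without saline pool 2, was fixed by leaving out the only pool on the other side. The TRAV11-TRAJ18 share at 50 mg/kg, 85.7% as a mean of pools (78.6 to 100% without 1 pool), was 45.5% over all C12 cells. Thinning moved the shares of cells with Tmem176b and Cxcr6 to 50.6% and 66.3%. TMM scaling gave 49 and 130 genes, of which 46 and 130 were among those called without it, and DESeq2 factors gave 51 and 127. The cause of these changes was not tested, other than the smaller number of cells or genes compared where a setting removes them.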
